A study of Mus musculus with 10 samples.

Results

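The 3 stefin A genes and the calprotectin genes S100a8 and S100a9 were followed in FDB1 cells, a mouse myeloid cell line that depends on a growth factor, across the loss of interleukin-3 (IL-3). The members were the probes of a spotted oligonucleotide array that the platform annotation assigns to Stfa1, Stfa2, Stfa3, S100a8 or S100a9. Each gene had 1 such probe, so 5 of the 21797 probes tested were members. They were chosen by their ratios in the same comparisons, so their values are given as a description, without p-values.

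The cells carried an activated cytokine receptor mutant, named FI-Delta, or the same receptor with the further change Y577F, a phenylalanine in place of a tyrosine. The RNA groups were Y577F cells kept for 72 h without factor, Y577F cells at 0 h, FI-Delta cells kept for 72 h without factor and FI-Delta cells at 0 h. All cells came from medium with 10% serum and 500 U/mL mouse IL-3 and were washed 3 times at 0 h. No arm with IL-3 for 72 h was analysed here, so time in culture and loss of IL-3 cannot be told apart, and whether each line was a clone or a pool is not given in the sources used here. There were 2 cultures of each line, which the array titles number 1 and 2 for FI-Delta and 3 and 4 for Y577F.

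RNA was labelled with Cy5 and Cy3 and compared in pairs on 10 arrays. There were 3 arrays of 72 h against 0 h in FI-Delta cells, 2 of 72 h against 0 h in Y577F cells, 3 of Y577F against FI-Delta at 0 h and 2 of Y577F against FI-Delta at 72 h. By their titles FI-Delta time arrays 1 and 2 held the same RNA of culture 2 with the dyes exchanged. They counted as 1 hybridisation, which left 9. Each array gave a log2 ratio per probe and no intensity, so an absolute level, or the presence of a marker above background, could not be read. The spread of the ratios over all probes of an array ranged from an SD of 0.232 to 0.371, and precision is limited by how few arrays and cultures there are. All ratios were turned so that the group named first stands on top. The direction Cy5 over Cy3 and the base 2 were assumed, and a wrong direction would turn every sign given here. Arrays of opposite dye layout correlated negatively as deposited for FI-Delta time (r = -0.237 and -0.356), Y577F time (r = -0.631) and the lines at 72 h (r = -0.515). At 0 h array 1 hardly correlated with arrays 2 and 3, which have the opposite layout (r = -0.0823 and 0.0393 over all probes).

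Stefin A proteins are small inhibitors in the cytosol that bind tightly to cysteine proteases of the papain family, such as cathepsins L, S and B. The mouse has a cluster of closely related stefin A genes, which are known from neutrophils and skin. S100A8 and S100A9 are calcium-binding proteins that pair to form calprotectin, a very abundant protein of the neutrophil cytosol that binds zinc and manganese and, once released, acts through Toll-like receptor 4 and the receptor RAGE. S100a8 and S100a9 are known to be switched on during the maturation of granulocytes and monocytes. In bulk RNA such as this, fewer cells of a type and less RNA per cell cannot be told apart.

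The promoters are shown because the 5 genes had like changes on these arrays and because they show how alike these regions of the stefin genes are. RefSeq on GRCm38.p6 gave the 250 bases before the start of all 5 members. Stfa1 lies at chr16:36276898-36277147 on the plus strand, Stfa2 at chr16:36408364-36408613 on the minus strand and Stfa3 at chr16:36455393-36455642 on the minus strand. The windows of S100a8 (chr3:90668821-90669070, plus strand) and S100a9 (chr3:90695722-90695971, minus strand) belong to neighbouring genes. Each is written 5′ to 3′ on the strand of its gene. In the stefin windows, capitals mark runs of at least 10 bases present in all 3, and in the S100 windows they mark matches to the motifs searched.
Stfa1: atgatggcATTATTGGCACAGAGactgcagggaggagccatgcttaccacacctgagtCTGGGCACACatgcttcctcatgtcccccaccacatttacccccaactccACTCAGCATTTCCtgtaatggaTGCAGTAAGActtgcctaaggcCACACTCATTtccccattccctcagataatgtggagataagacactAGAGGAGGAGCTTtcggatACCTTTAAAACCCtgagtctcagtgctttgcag
Stfa2: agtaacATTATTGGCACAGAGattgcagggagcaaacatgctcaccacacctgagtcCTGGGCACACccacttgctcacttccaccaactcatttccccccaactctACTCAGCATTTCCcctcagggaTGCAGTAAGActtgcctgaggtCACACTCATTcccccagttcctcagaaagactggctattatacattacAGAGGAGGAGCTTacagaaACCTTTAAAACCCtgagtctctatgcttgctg
Stfa3: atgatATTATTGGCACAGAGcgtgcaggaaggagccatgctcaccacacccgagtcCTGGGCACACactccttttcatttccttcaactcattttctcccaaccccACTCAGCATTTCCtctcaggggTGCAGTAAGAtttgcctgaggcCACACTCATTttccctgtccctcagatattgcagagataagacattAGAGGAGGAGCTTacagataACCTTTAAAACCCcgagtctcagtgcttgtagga
S100a8: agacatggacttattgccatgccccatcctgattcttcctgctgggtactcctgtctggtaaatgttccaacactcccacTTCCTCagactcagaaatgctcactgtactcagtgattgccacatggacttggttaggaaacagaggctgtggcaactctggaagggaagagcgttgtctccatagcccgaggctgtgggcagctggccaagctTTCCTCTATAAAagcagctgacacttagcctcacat
S100a9: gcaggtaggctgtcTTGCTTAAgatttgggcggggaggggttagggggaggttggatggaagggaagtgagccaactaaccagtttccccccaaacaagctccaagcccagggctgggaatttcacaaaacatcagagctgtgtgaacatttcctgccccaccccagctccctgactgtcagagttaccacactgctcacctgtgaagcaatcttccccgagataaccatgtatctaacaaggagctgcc

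The stefin windows were near copies of each other. Identity was 82.2% between Stfa1 and Stfa2, 85.8% between Stfa1 and Stfa3 and 81.8% between Stfa2 and Stfa3, against 60.3% between S100a8 and S100a9 and 57.1% to 64% over all pairs outside the stefins. The shared runs covered 84 of 250 bases in each stefin window. The longest, ATTATTGGCACAGAG, was found in 5 of 32851 promoter windows (0.0152%), 3 of which are those printed. Motifs chosen after these sequences were seen were searched on both strands. GAGGAA, the core bound by PU.1, matched in the 3 stefin windows and in S100a8, beside 23.3% of all windows. TTGCNNAA, a C/EBP pattern, matched in Stfa1 and S100a9 (9.56% of all windows), and GATAAG in Stfa1 and Stfa3 (6.55%). TATAAA matched in S100a8 alone among the members (12.4% of all windows), directly after a GAGGAA match, and the STAT pattern TTCNNNGAA matched in no member (7.02%).

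The windows compared lie before the start of each gene, so their likeness does not show what the probes measure. From Csta1 to Stfa3 on chromosome 16 the reference annotation lists 11 genes named as stefin or cystatin A types, with other records among them. Of the 11, 4 have a probe assigned to them alone (Csta2, Stfa1, Stfa2 and Stfa3) and 7 do not. The probe sequences were not used here, so RNA of an unmeasured copy may have been read by a stefin probe, and the 3 stefin values may not be 3 separate genes. S100a8 and S100a9 are neighbours on chromosome 3.

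All 5 members were higher at 72 h than at 0 h in FI-Delta cells. They rank among the 123 probes with the largest increase. The stefins had the larger fitted changes, 2.97-fold to 3.88-fold, against 1.95-fold to 2.07-fold for the S100 genes, each as a fold of linear ratios.

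Stfa1, a stefin A of the cluster, had log2 ratios of 72 h over 0 h of 2.03, 0.76 and 2.05 on FI-Delta time arrays 1, 2 and 3. By their titles arrays 1 and 2 measured the same RNA, in which case their gap is technical. Over all probes, however, their turned ratios correlated less (r = 0.237) than those of arrays 2 and 3 (r = 0.356), which hold different cultures. The ratios of Stfa2, a stefin A of the same cluster on the minus strand, were 1.35, 1.65 and 2.29. Those of Stfa3, also of the cluster and on the minus strand, were 1.92, 1.10 and 2.61. Every stefin ratio was above 0. S100a8, the smaller calprotectin subunit, had 1.30, 0.00 and 1.63, and S100a9, the larger subunit, 1.19, 0.38 and 1.64. Array 2, the one with the 72 h RNA in Cy3, gave the lowest ratio for 4 of the 5 members, Stfa2 being the exception, and showed no change of S100a8.

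The loop fit across all arrays gave log2 changes of 1.57 ± 0.20 for Stfa1, 1.58 ± 0.19 for Stfa2 and 1.96 ± 0.23 for Stfa3, with the standard error of the fit over 9 hybridisations. For S100a8 it gave 1.05 ± 0.17 and for S100a9 0.96 ± 0.18. The loop fit treats the 9 hybridisations as independent, although they share RNA extracts. Its standard errors and calls make no allowance for that sharing. A probe was called where limma's adjusted p over all 21797 probes was under 0.05. All 5 members were called higher, where 5.12% of all probes were called higher, 3.06% lower and 8.18% in either direction. The median member change was 1.57, against -0.00734 for all probes. All 5 calls held when any 1 of the 10 arrays was left out, with Stfa3 between 1.66 and 2.11 and S100a9 between 0.81 and 1.08. With a term for each RNA extract, S100a8 and S100a9 were not called, although their estimates were 1.22 ± 0.26 and 1.19 ± 0.31. Such a term takes differences between cultures out of the error, which then reflects the spread between hybridisations alone. A call that holds with it therefore does not show agreement between cultures.

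**Figure D1:**
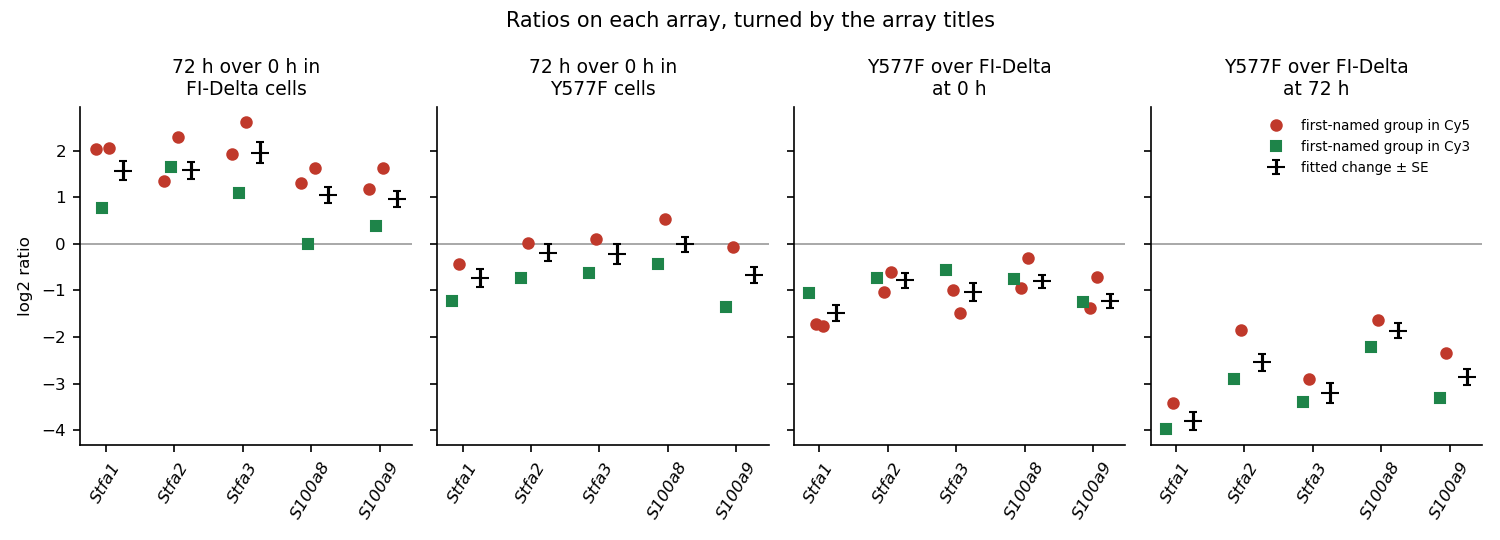
Log2 ratio of the group named first in each panel title over the other (vertical axis) for each member on every array, with the fitted change ± SE in black. Red circles are arrays with the first-named group in Cy5 and green squares those with it in Cy3. Both ratios of every member at 72 h lie at -1.64 or lower, and all FI-Delta time ratios lie at or above 0.

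In Y577F cells the same genes did not go up without factor. None of the 5 was higher at 72 h, 2 were lower and 3 were not called. The fitted changes were between -0.73 and -0.01 on the log2 scale.

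Stfa1 had log2 ratios of 72 h over 0 h of -1.23 and -0.43 on Y577F time arrays 1 and 2, which hold different cultures and opposite dye layouts. S100a9 had -1.35 and -0.06. Both genes were below 0 on both arrays, by amounts that differed between them. Stfa2 had -0.72 and 0.01, Stfa3 -0.62 and 0.11, and S100a8 -0.43 and 0.53. These 3 genes lay on opposite sides of 0 on these arrays. Array 1, with the 72 h RNA in Cy3, gave the lower ratio for all 5.

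The fit gave -0.73 ± 0.19 for Stfa1 (1.66-fold lower) and -0.67 ± 0.17 for S100a9 (1.59-fold lower), both called lower, where 8.62% of all probes were. It gave -0.19 ± 0.18 for Stfa2, -0.21 ± 0.22 for Stfa3 and -0.01 ± 0.16 for S100a8, which were not called, beside 9.03% of all probes called higher and 17.6% in either direction. The median member change was -0.211, against 0.00719 for all probes. Both calls depended on single arrays, and neither was made when arrays were scaled to the same spread (-0.60 and -0.56). Without Y577F time array 1 neither was called, with estimates of -0.44 for Stfa1 and -0.46 for S100a9. Without array 2 Stfa1 was not called, at -0.86. With a term for each extract, S100a9 was not called (-0.69).

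The lines already differed in IL-3, before factor was withdrawn. All 5 members were lower in Y577F cells than in FI-Delta cells at 0 h, by 1.72-fold (Stfa2) to 2.81-fold (Stfa1). This is the comparison with the fewest calls of any, and the members were among the 33 probes with the largest decrease.

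At 0 h the log2 ratios of Y577F over FI-Delta were -1.06, -1.73 and -1.77 for Stfa1 on arrays 1, 2 and 3. They were -0.74, -1.03 and -0.60 for Stfa2 and -0.56, -1.0 and -1.49 for Stfa3. No stefin ratio reached 0 on any array. S100a8 had -0.76, -0.94 and -0.29 and S100a9 had -1.24, -1.39 and -0.70. S100a9 was the lower of the calprotectin pair on each of the 3 arrays. Array 1, with Y577F in Cy3, gave the smallest decrease for Stfa1 and Stfa3, and array 3, with Y577F in Cy5, for Stfa2 and both S100 genes.

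Fitted changes at 0 h were -1.49 ± 0.17 for Stfa1, -0.78 ± 0.16 for Stfa2, -1.03 ± 0.19 for Stfa3, -0.81 ± 0.15 for S100a8 and -1.22 ± 0.15 for S100a9. All 5 were called lower, where 0.473% of all probes were and 1.4% were called in either direction, and the median was -1.03, against -0.00632 for all probes. Stfa1 and S100a9 were called whichever array was left out. Stfa2 was called in only 3 of the 10 fits with an array left out, between -1.03 and -0.58. Stfa3 lost its call without 72 h array 1, Y577F time array 2, 0 h array 2 or 0 h array 3, and S100a8 without 72 h array 1 or 0 h array 2. With a term for each extract, only Stfa1 among the members was called.

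At 72 h the lines were furthest apart. Stfa1 was 13.9-fold lower in Y577F cells than in FI-Delta cells, Stfa3 9.17-fold, S100a9 7.24-fold, Stfa2 5.82-fold and S100a8 3.64-fold. Only 1 of the 21797 probes had a larger decrease than Stfa1.

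Ratios of Y577F over FI-Delta at 72 h were -3.98 and -3.41 for Stfa1 on arrays 1 and 2, -2.90 and -1.84 for Stfa2, and -3.40 and -2.91 for Stfa3, on the log2 scale. S100a8 had -2.21 and -1.64, and S100a9 had -3.30 and -2.33. Each array compared a different culture of each line, and array 1, with Y577F in Cy3, gave the larger decrease for all 5. The gap between the arrays, at most 1.06 (Stfa2), was smaller than either ratio for every member.

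The fit gave -3.79 ± 0.19 for Stfa1, -2.54 ± 0.18 for Stfa2, -3.20 ± 0.22 for Stfa3, -1.87 ± 0.16 for S100a8 and -2.86 ± 0.17 for S100a9. All 5 were called lower, where 6.22% of all probes were, 6.4% were called higher and 12.6% in either direction, with a median of -2.86 against 0.00802. No array that was left out, and no term for extracts, removed a call, though the error with that term leaves out differences between cultures. Without single arrays Stfa1 ranged from -4.0 to -3.69 and S100a8 from -1.93 to -1.80.

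**Figure D2:**
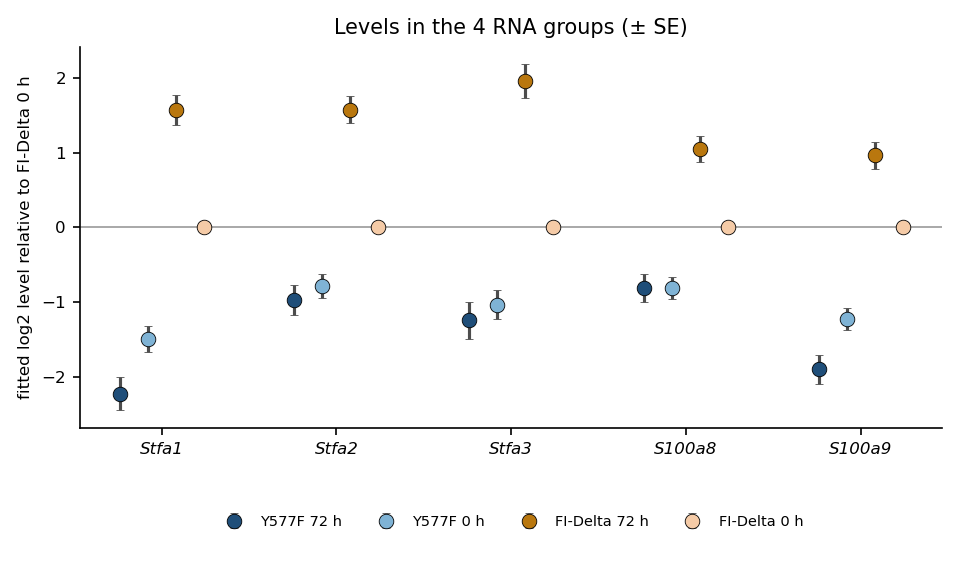
Fitted log2 level (vertical axis, ± SE of the difference from FI-Delta 0 h) of each member in the 4 RNA groups, set to 0 in FI-Delta cells at 0 h. For every member FI-Delta cells at 72 h are highest and Y577F cells at 72 h lowest, and in Stfa2, Stfa3 and S100a8 the error bars of the Y577F groups overlap.

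Put on one scale, the levels of each member had the same order of estimates, with FI-Delta cells at 72 h above FI-Delta cells at 0 h, then Y577F cells at 0 h, then Y577F cells at 72 h. Relative to FI-Delta cells at 0 h, the fitted log2 level in Y577F cells at 72 h was -2.22 ± 0.22 for Stfa1, -0.97 ± 0.20 for Stfa2, -1.24 ± 0.25 for Stfa3, -0.82 ± 0.19 for S100a8 and -1.89 ± 0.19 for S100a9. The Y577F groups were the neighbours that did not differ beyond their spread for Stfa2, Stfa3 and S100a8. The other steps in the order were all called for each member. The 72 h gap is thus the sum of the gap at 0 h and 2 changes over time. For S100a8 the sum has 1.05 from FI-Delta cells, 0.81 from the 0 h gap and nearly nothing from Y577F cells, whereas for Stfa1 and S100a9 the fall in Y577F cells added 0.73 and 0.67. These sums follow from the fit, which holds the 4 sides together, and the comparisons share RNA.

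The difference between the lines in their change over 72 h was estimated directly, as the Y577F change minus the FI-Delta change. It was -2.30 ± 0.22 for Stfa1, -1.76 ± 0.20 for Stfa2, -2.17 ± 0.25 for Stfa3, -1.06 ± 0.19 for S100a8 and -1.63 ± 0.19 for S100a9. All 5 were called lower, where 4.9% of all probes were (4.29% higher, 9.2% in either direction), whichever array was left out. The term for extracts removed the call of S100a8. The arrays give this difference along separate paths, from the time arrays or from the arrays that compare the lines. For Stfa1 the time arrays gave -2.55 and the line arrays -2.18, and for Stfa2 they gave -2.25 and -1.58, the widest gap. For Stfa3 the time arrays gave -2.31 and the line arrays -2.13, for S100a8 -1.09 and -1.26, and for S100a9 -1.92 and -1.71. Both paths gave the same sign for every member.

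The dye term, the log2 offset of Cy5 over Cy3 that the fit holds apart from the groups, was above 0 for every member. It was 0.11 ± 0.12 for Stfa1, 0.30 ± 0.11 for Stfa2, 0.12 ± 0.13 for Stfa3, 0.30 ± 0.10 for S100a8 and 0.41 ± 0.10 for S100a9. No member's dye term was called, as against 159 of the 21797 probes. By size, however, the dye term of S100a9 ranked 89 among all probes, that of S100a8 359 and that of Stfa2 379. S100a9, with the largest dye term, was not called for 72 h over 0 h in Y577F cells when the term was left out (-0.65 ± 0.25).

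**Figure D3:**
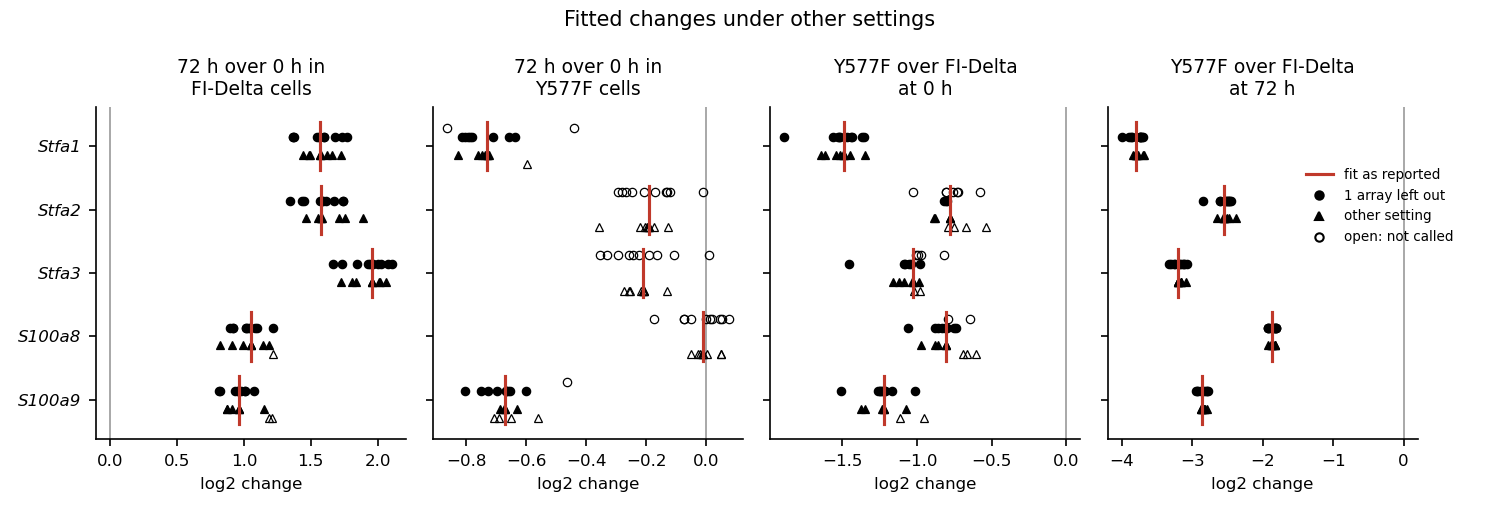
Fitted log2 change (horizontal axis) of each member as reported (red line), with 1 array left out (circles) and under the other settings (triangles), in 4 panels for the 4 comparisons. Open symbols were not called. They occur for Y577F cells over time and for the lines at 0 h, for S100a8 and S100a9 over time in FI-Delta cells, and nowhere in the comparison of the lines at 72 h.

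The members followed each other closely over the 9 hybridisations. As a description, the cosine of their ratio profiles, which is 1 for profiles of the same shape, ranged from 0.943 (Stfa1 with S100a8) to 0.979 (Stfa1 with S100a9, and Stfa2 with Stfa3), so the pairs did not sort by family. Dye, array and RNA are shared by all probes of an array. Other probes were ranked by the same measure among 1157 that reached a log2 ratio of at least 1 in size on some hybridisation. Nearest to Stfa1 were Camp (0.982), the antimicrobial peptide cathelicidin, Fcnb (0.981), a lectin, and Pglyrp1 (0.979), a bactericidal protein that binds peptidoglycan. Nearest to Stfa3 were Itgb2l (0.988), an integrin beta chain, Mmp9 (0.985), a gelatinase, and Trem3 (0.984), a myeloid receptor.

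Trem3 (0.979) also led for Stfa2, followed by Scnn1a (0.979), an epithelial sodium channel subunit, and Neb (0.978), nebulin of muscle. For S100a8 the nearest were Scnn1a (0.967), Smim4 (0.957) and Ankrd22 (0.956), and for S100a9 Med21 (0.984), a Mediator subunit, Rnaseh2c (0.973), an RNase H2 subunit, and Pglyrp1 (0.963). The likeness is of shape, not of size. For Y577F over FI-Delta at 72 h Camp had a log2 change of -3.94, close to Stfa1 (-3.79), while Med21 had -1.46, beside -2.86 for S100a9.

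**Figure D4:**
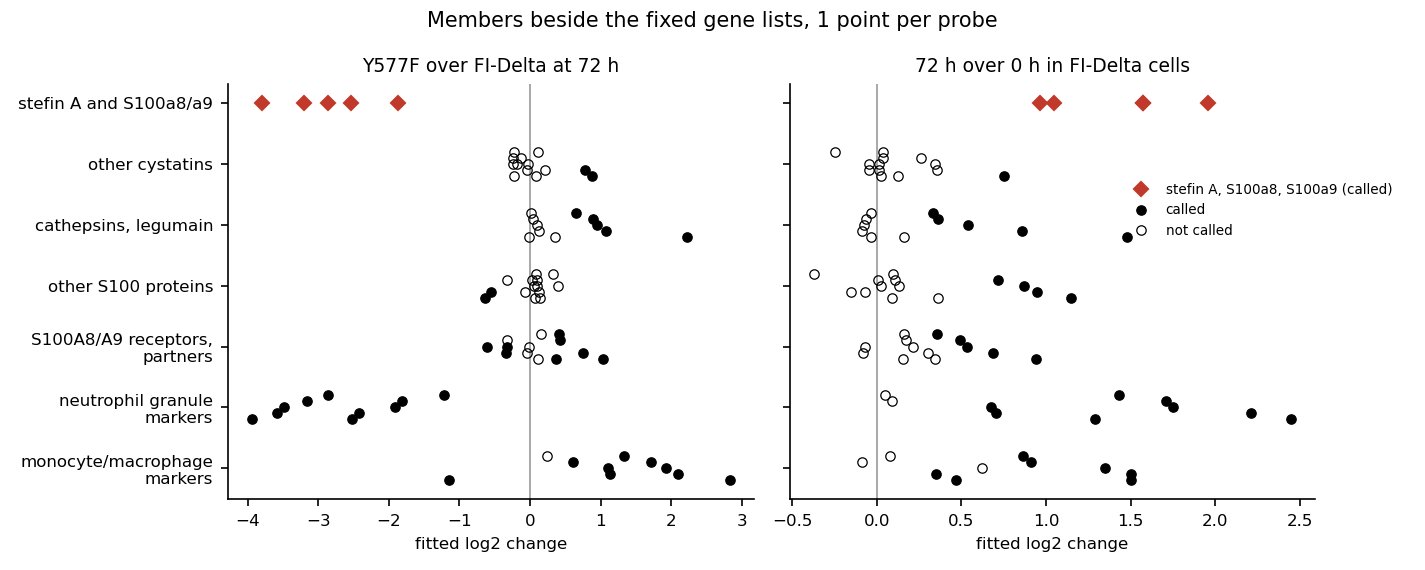
Fitted log2 change (horizontal axis), 1 point per probe, for Y577F over FI-Delta at 72 h (left) and 72 h over 0 h in FI-Delta cells (right), with the members in red beside 6 gene lists. Filled points were called. The members lie within the range of the neutrophil granule markers in both panels. The other cystatins and S100 list lie nearer 0 than the members on the left, while on the right S100a6 (1.15) lies above S100a8 (1.05) and S100a9 (0.96).

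The pathway around both families is given next as counts, from lists chosen with earlier results of these data known. Of 13 other cystatin probes, 1 was called higher and none lower at 72 h in FI-Delta cells, beside 5.12% and 3.06% of all probes. Between the lines at 72 h, 2 were called higher in Y577F cells and none lower, beside 6.4% and 6.22% of all probes. The FI-Delta count was 2 without FI-Delta time array 1 or 72 h array 2. Cstb, stefin B, the cytosolic inhibitor outside the stefin A cluster, was higher at 72 h in both lines, by 1.36 ± 0.09 in Y577F cells (limma, adjusted p = 1.7e-06) and by 0.75 ± 0.10 in FI-Delta cells (limma, adjusted p = 0.00048). At 72 h it was higher by 0.88 ± 0.09 in Y577F than in FI-Delta cells (limma, adjusted p = 5.9e-05), while Stfa1, Stfa2 and Stfa3 were lower there. Ahsg, fetuin A, was higher by 1.15 ± 0.11 at 72 h in Y577F cells (limma, adjusted p = 2.4e-05). Cst7, cystatin F, a lysosomal inhibitor of leukocytes, was lower there, at -0.44 ± 0.11, a call that was lost without Y577F time array 1. Csta2, the other gene of the stefin A cluster with a probe, had changes of -0.22 ± 0.10 for Y577F over FI-Delta at 72 h, 0.17 ± 0.09 at 0 h, -0.14 ± 0.10 over time in Y577F cells and 0.26 ± 0.10 over time in FI-Delta cells, none of them called. Its difference between the lines in the change over time, -0.40 ± 0.11, was called but lost the call in 8 of the 10 fits with an array left out. At 0 h no cystatin of the list was called by limma, and 2 had an unadjusted p under 0.05.

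Several of the proteases that stefins inhibit were higher in Y577F than in FI-Delta cells at 72 h, where the stefin A genes were lower. Of 11 papain-family cathepsins and legumain, 5 were called higher in that comparison at 72 h, none lower. Ctss, cathepsin S of antigen-presenting cells, was higher by 2.22 ± 0.09 (limma, adjusted p = 4.7e-08), Ctsl, cathepsin L, by 1.08 ± 0.12 (limma, adjusted p = 8e-05), and Ctsb, cathepsin B, by 0.96 ± 0.14 (limma, adjusted p = 0.00056). Over time, 6 were called higher in Y577F cells, with Ctss up by 3.14, and 5 in FI-Delta cells, with Ctss up by 1.48 ± 0.10. The count in FI-Delta cells fell to 2 or 3 when any array other than FI-Delta time array 1 was left out, and to 2 with a term for extracts. At 0 h only Ctss was called, at 0.56, and not without 0 h array 1 or with a term for extracts. The list's medians were 0.359 between the lines at 72 h, 0.0224 at 0 h, 0.447 over time in Y577F cells and 0.164 over time in FI-Delta cells, beside all-probe medians within 0.01 of 0.

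Other S100 genes gave a mixed picture around the calprotectin pair. The list's 14 probes for 13 genes include S100pbp, which encodes a binding partner of an S100 protein and was called in none of the 4 comparisons. Of the 14, 2 were called lower and none higher in Y577F than in FI-Delta cells at 72 h, beside 6.22% and 6.4% of all probes. These were S100a6, calcyclin, at -0.64 ± 0.09 (limma, adjusted p = 0.00037) and S100a11, calgizzarin, at -0.56 ± 0.10 (limma, adjusted p = 0.0024), whose call was lost without 72 h array 1. Over time, 5 were called higher in Y577F cells and 4 in FI-Delta cells, beside 9.03% and 5.12% of all probes. S100a6 was higher at 72 h in both lines, by 0.69 ± 0.09 in Y577F and 1.15 ± 0.09 in FI-Delta cells, and S100a11 by 0.62 ± 0.10 in Y577F and 0.95 ± 0.10 in FI-Delta cells. S100a1, known from heart muscle, was higher by 1.30 ± 0.10 in Y577F and 0.87 ± 0.11 in FI-Delta cells. The 4 called in FI-Delta cells were all called higher in Y577F cells too, where S100a8 and S100a9 had -0.01 and -0.67. With a term for extracts S100a6 was called in neither Y577F cells over time nor between the lines at 72 h, and the counts there were 3 and 1. At 0 h no other S100 probe was called by limma, and 6 had an unadjusted p under 0.05, while 1 was called without Y577F time array 2 or 0 h array 3. For the difference between the lines in the change over time, S100pbp (0.602 ± 0.143), S100a1 (0.431 ± 0.117) and S100a6 (-0.459 ± 0.098) were called. None of these calls held without 0 h array 1 or with a term for extracts.

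Genes of the proteins that calprotectin binds or activates did not fall as a group. Of 13 receptors and partners, 5 were called higher and 3 lower in Y577F than in FI-Delta cells at 72 h, beside 6.4% and 6.22% of all probes. Cd14, a co-receptor of Toll-like receptor 4, was higher by 1.03 ± 0.13 (limma, adjusted p = 0.00025) and Cybb, the catalytic subunit of the phagocyte oxidase, by 0.74 ± 0.10 (limma, adjusted p = 0.00035). Ncf1, a cytosolic subunit of the oxidase, was lower, at -0.61 ± 0.13, a call lost without either 72 h array, and the count fell from 8 in all to 4 without 72 h array 1, to 2 without 72 h array 2 and to 5 without FI-Delta time array 2. Over time, 8 were called higher in Y577F cells, 5 without Y577F time array 1, and 5 in FI-Delta cells, 3 without 0 h array 1, either 72 h array or Y577F time array 1. In Y577F cells Cd14 was higher by 1.03 ± 0.13 and Myd88, the adaptor of Toll-like receptors, by 0.95 ± 0.10. With a term for extracts the counts were 3 between the lines at 72 h, 5 over time in Y577F cells and 2 over time in FI-Delta cells. Tlr4 and Ager, the genes of the receptors themselves, were singled out after their values were seen. Tlr4 was called only in FI-Delta cells over time, at 0.36 ± 0.10 (limma, adjusted p = 0.045), and Ager, which encodes RAGE, in none of the 4 comparisons (-0.01 ± 0.10 between the lines at 72 h). At 0 h none was called by limma, 5 had an unadjusted p under 0.05, and 1 was called without 72 h array 2, Y577F time array 2 or FI-Delta time array 3.

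Of 8 transcription factors known to act on S100a8 and S100a9 or in late granulocyte maturation, 1 was called higher and 2 lower in Y577F than in FI-Delta cells at 72 h. Of all probes, 6.4% were called higher and 6.22% lower there. Cebpb, a C/EBP factor of both myeloid branches, was higher by 0.71 ± 0.10 (limma, adjusted p = 0.00039), and Myb, a factor of immature cells, was lower, at -0.90 ± 0.09 (limma, adjusted p = 5.4e-05). Klf5, a Krüppel-like factor, was lower, at -0.52, a call lost when FI-Delta time array 2 or 72 h array 1 was dropped. Over time, 3 were higher and 2 lower in Y577F cells, among them Cebpb at 1.36 ± 0.10, Cebpd at 0.76 ± 0.11 and Myb at -1.12 ± 0.09. In FI-Delta cells 3 were higher and 1 lower, with Cebpb at 0.68 ± 0.10 and Cebpa at -0.86 ± 0.12, and 2 were called in all with a term for extracts, as also when Y577F time array 1, FI-Delta time array 2, FI-Delta time array 3 or 72 h array 1 was left out. At 0 h none was called by limma and 3 had an unadjusted p under 0.05.

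Of the cell type marker lists, the neutrophil granule list moved with the members. The part of any cell type in the member changes was not tested. All 10 neutrophil granule markers were called lower in Y577F than in FI-Delta cells at 72 h, with a median of -2.69. The change was -3.94 ± 0.15 for Camp, -3.59 ± 0.14 for Ngp, a neutrophil granule protein, and -3.48 ± 0.22 for Ltf, lactoferrin. At 0 h 9 of the 10 were called lower (median -1.09), and 4 with a term for extracts. Over time the list had 1 higher and 4 lower in Y577F cells (median -0.285) and 8 higher in FI-Delta cells (median 1.36), where Ltf was up by 2.45, Mmp8, neutrophil collagenase, by 2.21 and Camp by 1.75. Mmp8 was the one granule marker called higher in Y577F cells, at 0.93 ± 0.16, where 2 members were called lower and 3 were not called. Of the 4 granule markers called lower there, Ctsg, at -1.57 ± 0.105, and Elane, at -0.854 ± 0.108, fell further than any member.

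Of 10 monocyte and macrophage markers, 8 were called higher and 1 lower in Y577F than in FI-Delta cells at 72 h (median 1.23). At 0 h 3 were called higher and 1 lower (median 0.101), with none called without 0 h array 1 or with a term for extracts, and 2 without 0 h array 2. Over time 9 were higher in Y577F cells (median 1.97) and 7 in FI-Delta cells (median 0.745). Of all probes, 6.4% were called higher and 6.22% lower between the lines at 72 h, and 0.927% and 0.473% at 0 h. Over time the shares were 9.03% and 8.62% in Y577F cells and 5.12% and 3.06% in FI-Delta cells. Among 9 mast cell and basophil markers, 3 were higher and 1 lower between the lines at 72 h, 2 and 1 at 0 h, 1 and 4 over time in Y577F cells and 0 and 4 over time in FI-Delta cells. Among 7 erythroid and megakaryocyte markers the counts were 2 and 1, 1 and 0, 2 and 2, and 0 and 2, in the same order. These counts are small and moved with single arrays: the 3 mast cell and basophil calls at 0 h became 0 without 0 h array 1 or with a term for extracts and 1 without 0 h array 2. The 4 erythroid calls over time in Y577F cells became 2 without either Y577F time array or with a term for extracts, and the 3 between the lines at 72 h became 1 without 72 h array 2 or with that term, which also left none at 0 h. None of 8 lymphoid probes was called by limma in any of these comparisons, with at most 1 at an unadjusted p under 0.05, and 1 was called between the lines at 72 h without Y577F time array 2. Keratinocytes, the other main source of stefin A, were followed with 7 markers, of which Ivl, involucrin, alone was called, at 0.32 between the lines at 72 h and 0.31 over time in Y577F cells. Neither call of Ivl held with a term for extracts. The first was lost in 5 of the 10 fits with an array left out (either 72 h array, Y577F time array 1, FI-Delta time arrays 1 and 3), and the second without either Y577F time array. The difference between the lines in the change of Ivl over time, 0.485 ± 0.098, was called too (limma, adjusted p = 0.0097). That call was lost without 72 h array 2 or with a term for extracts. Defining markers could be read only as changes, since the files hold no intensity.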

How the data were processed

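The deposited table holds 1 log2 ratio per spot and array, normalised by the authors. The submitters' processing notes name limma, without version or settings. The labels give no log base or direction. The table has 23040 spots. After 1243 controls, 21797 probes were tested, of which 16651 had 1 gene symbol in the platform annotation, 137 several and 5009 none. No value was missing. Ratios were turned by the array titles, and the 2 dye-swapped arrays that the titles give as one RNA were averaged. A loop model joined the 4 RNA groups by 3 coefficients, beside a dye term (limma 3.58.1 in R 4.3.3, 5 residual and 6.62 prior degrees of freedom). Benjamini-Hochberg adjustment ran over all 21797 probes in each comparison, with calls at an adjusted p under 0.05. Probes were kept apart. The fit was tested on simulated data with noise independent between arrays, which cannot show how shared RNA extracts affect the calls. The members and gene lists were chosen with earlier results of these data known. All members were named, with up to 3 genes by size per list and comparison and the 3 probes nearest to each member by cosine. Culture numbers come from the titles, and the numbers in the source names are crossed on arrays with Y577F in Cy5. Culture differences at 0 h and 72 h correlated across probes in a fit with a term per extract (r = 0.715 in FI-Delta, 0.689 in Y577F), but rest partly on the same arrays.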

Additional observations from a re-analysis of the deposited data

Results flagged for a closer look

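The change over 72 h without factor differed between the lines for all 5 members, by the term of the loop fit that tests this difference across all probes. The Y577F change minus the FI-Delta change was -2.30 on the log2 scale for Stfa1, -2.17 for Stfa3, -1.76 for Stfa2, -1.63 for S100a9 and -1.06 for S100a8. Since the members were picked for this behaviour, the values describe them and are no independent evidence. The neutrophil granule genes Camp (-2.16 ± 0.17) and Ngp (-1.76 ± 0.16) had differences of like size, and the part of a shift in cell make-up was not tested.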

How the results depend on the processing

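No estimate of a member changed sign in a comparison where it was called. With a replicate block, 1 term for every extract (8 extracts, 2 residual degrees of freedom, no dye term), probes called over time in FI-Delta cells fell to 622 against 1784, over time in Y577F cells to 1842 against 3846, between the lines at 0 h to 25 against 305, between the lines at 72 h to 1140 against 2752 and for the difference in change to 464 against 2005. Members called in that block fit numbered 3 over time in FI-Delta cells, 1 over time in Y577F cells and 1 at 0 h, against 5, 2 and 5, and Stfa2 was at -0.54 at 0 h. With the direct arrays alone the probe counts were 809, 2106, 126, 1438 and 307 in the same order, with 1 member over time in Y577F cells, 1 at 0 h and 3 for the difference. Array weights gave 3989 probes over time in FI-Delta cells, 495 at 0 h and 5901 at 72 h. Without the dye term 1 member was called over time in Y577F cells and 3 at 0 h, and with scaled arrays 0 over time in Y577F cells, where the fit as reported called 2. Leaving out 1 array gave 988 to 2110 probes over time in FI-Delta cells, 2065 to 3798 over time in Y577F cells, 76 to 333 at 0 h, 1521 to 2798 at 72 h and 985 to 1976 for the difference. The lowest came without FI-Delta time array 3, Y577F time array 1, 0 h array 1, 72 h array 2 and 72 h array 2. Members called ranged from 0 to 2 over time in Y577F cells and from 2 to 5 at 0 h (2 without 72 h array 1 or 0 h array 2, 3 without Y577F time array 2 or 0 h array 3), and stayed at 5 elsewhere. The counts of the gene lists under these settings were added after seeing the data. A filter on dim probes and other background corrections were not run, since the ratios carry no intensity. The causes were not tested.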
